A study of Mus musculus with 6 samples.

Results

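Expression of 10 genes of the Toll-like receptor pathway was examined in hematopoietic stem cells (HSCs) sorted from mouse fetal liver, with 1 or no intact copy of the chromatin gene Dpy30. The genes were taken by name: 6 receptors (Tlr1, Tlr2, Tlr4, Tlr6, Tlr7 and Tlr9), the co-receptor Cd14, the adaptors Myd88 and Ticam1, and the kinase Irak4. All 10 were among the 38926 gene symbols of the deposited count lists. The protein made from Dpy30 belongs to the SET1/MLL enzyme complexes that place methyl groups on histone H3 lysine 4. Control cells were labelled Vav-Cre; Dpy30F/+ and knockout cells Vav-Cre; Dpy30F/-, all from livers of E14.5 embryos, with 1 sample of each genotype in each of 3 litters. In Vav-Cre mice the recombinase is driven by a Vav promoter, which works in cells of the blood lineage and also, to some extent, in endothelium. The controls carried Cre and an F allele as well, so the comparison, by genotype after recombination, is between cells with 1 intact allele and cells with none. The labels do not say whether a sample was 1 embryo or a pool.

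Toll-like receptors are membrane proteins that recognise molecules of microbes. Tlr2 pairs with Tlr1 or Tlr6 at the cell surface and binds bacterial lipopeptides, Tlr4 works with Cd14 and Ly96 (MD-2) to bind lipopolysaccharide, and Tlr7 and Tlr9 sit in endosomes and bind RNA and unmethylated DNA. Most of them signal through the adaptor Myd88 and the kinase Irak4 to NF-kappaB, while Ticam1 (TRIF) serves Tlr3 and Tlr4 and leads to interferon genes. Blood stem and progenitor cells carry some of these receptors, macrophages carry most of them, and liver endothelium carries several.

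Counts assigned to genes came to between 31897737 and 43394700 per library, of which mitochondrial ribosomal RNA took 49.7% to 61.7% in controls and 45.2% to 50.5% in knockouts. Levels are given as CPM, the usual depth-normalised count of a gene relative to its library's total, here after scaling by trimmed mean of M values (TMM). On that scale 3 counts, the limit that a count of 0 allows, correspond to between 0.0680 and 0.104 CPM, and such limits cover counting error only. Dpy30 itself was at 24.6, 24.2 and 31.6 CPM in controls 1 to 3 and at 7.93, 5.95 and 13.7 CPM in knockouts 1 to 3, so every knockout was below every control but held some Dpy30 RNA (log2 fold change -1.55, SE 0.46, edgeR adjusted p = 0.672). In edgeR's quasi-likelihood test 0 of 13646 tested genes (0%) had a Benjamini-Hochberg adjusted p under 0.05, while 888 (6.51%) had an unadjusted p under 0.05. DESeq2, fitted as another test, called 138 genes (1.03% of those given an adjusted p).

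Some libraries stood apart from the rest in markers of cell type. The progenitor genes Kit and Mllt3 were present in every library, at between 114 and 216 CPM and between 104 and 161 CPM. Knockout 3 was lower than every other library in the HSC genes Hlf (27.2 CPM against 146 to 230), Mecom (11.6 against 70.2 to 147) and Slamf1 (0.514 against 6.59 to 15.6). The 13 HSC and progenitor genes listed summed to 441 CPM there and to 752 to 1084 CPM elsewhere. Within that list Mllt3 was highest in knockout 3, and Gata2 was above every control (45.3 CPM against 30.1 to 32.0). Knockout 3 was also the lowest library in 29.1% of all tested genes and had the fewest genes with a count (13972). Genes of liver sinusoidal endothelium were also abundant. A list of 20 endothelial genes, drawn up after the values of other genes were seen, summed to 2203, 3147 and 2003 CPM in controls 1 to 3 and to 2880, 421 and 2825 CPM in knockouts 1 to 3. Knockout 2 was thus at 16.1% of the mean of the other 5 libraries. It had the lowest level of 17 of the 20 genes, where it was lowest in 20.5% of all tested genes. It held 24.6 CPM of Stab2 (a scavenger receptor of sinusoidal endothelium) where the others held 317 to 534 CPM. The list was not uniform there. Tie1 was highest of all libraries in knockout 2 (63.4 CPM against 11.8 to 50.8), and Clec4g (7.14 CPM) lay above every control (3.33 to 5.30 CPM). In bulk RNA, fewer cells of a type and less RNA per cell cannot be told apart. The values below are therefore given for each library.

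The receptors of bacterial lipopeptides differed widely between libraries of 1 genotype. Tlr2 (chromosome 3, 83836272 to 83841767, minus strand, GRCm38) was at 0.656, 1.85 and 4.08 CPM in controls 1 to 3 and at 10.9, 0.138 and 4.63 CPM in knockouts 1 to 3. Knockouts 1 and 3 lay above all controls and knockout 2 below all of them. On the log2 scale the knockout was 1.24 above the control in Tlr2, with a standard error (SE) of 1.40 and an edgeR adjusted p of 0.918. That value was 0.11 without knockout 1, 0.81 without control 1, 2.05 without control 3, 0.20 with litter as a replicate block and 0.11 with limma-voom. Its partners showed another arrangement. For Tlr1 the 3 controls gave 0, 0 and 53 counts, in order of litter, and the 3 knockouts gave 0, 288 and 0. Tlr6 had 0 counts in each control and 7, 376 and 0 in knockouts 1 to 3. Knockout 2 was therefore the library with most Tlr1 (7.94 CPM) and most Tlr6 (10.4 CPM), and the one with least Tlr2. Knockout 1, with most Tlr2, had 0 counts of Tlr1 and 0.176 CPM of Tlr6. Neither partner had enough counts in 3 libraries to pass the filter on low counts, and so neither was tested with it. Without that filter the edgeR adjusted p was 0.729 for Tlr1 and 0.617 for Tlr6.

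Tlr1 (chromosome 5, 64924679 to 64933563, minus strand, GRCm38) and Tlr6 (chromosome 5, 64952031 to 64960097, minus strand) are neighbouring copies separated by 18467 bases. Of the 50-base windows of Tlr1's annotated transcripts, 13.6% also occur in those of Tlr6, and reads from there may align to more than 1 place and then be given to neither. Of the genes on each side, Klf3 had 3186 counts in knockout 2 against 3119 to 7693 in the other libraries, and Fam114a1 had 68 against 23 to 348. The high counts of knockout 2 did not extend to these nearest neighbours, but Tmem156, which lies beyond Fam114a1, had 0, 23 and 0 counts in the controls of litters 1 to 3 and 97, 204 and 0 in the knockouts, so it too was highest in knockout 2. The stretches just before the annotated starts of Tlr1 and Tlr6 are shown because the pair was high together in that library. They are from RefSeq's promoter windows (GRCm38.p6), at chr5:64933564-64933708 and chr5:64960098-64960198, both read on the minus strand, and capitals mark matches to the motifs searched.
Tlr1: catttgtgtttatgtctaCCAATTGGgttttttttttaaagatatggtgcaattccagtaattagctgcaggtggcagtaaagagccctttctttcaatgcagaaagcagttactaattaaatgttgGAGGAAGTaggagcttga
Tlr6: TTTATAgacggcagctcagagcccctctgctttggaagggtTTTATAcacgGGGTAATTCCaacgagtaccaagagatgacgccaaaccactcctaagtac
The Tlr1 stretch holds GAGGAAGT, a motif of the myeloid factor PU.1, and CCAAT with its reverse overlapping it. The Tlr6 stretch holds a motif of NF-kappaB, GGG and TTCC separated by any 3 bases, and the TATA box TATAAA in the reverse direction in 2 places. The search also covered CCGGAAGT (ETS factors), TGANTCA (AP-1), the GC box GGGCGG, and GAAA followed after any 2 bases by GAAA (the interferon response element), none of which occurs in these 2 stretches. Searched on both strands, 3.20% of 32851 promoter windows of 300 bases hold the PU.1 letters, 5.56% the NF-kappaB letters, 37.4% CCAAT, 13.6% TATAAA, 3.89% the ETS letters, 7.81% the AP-1 letters and 3.44% the interferon response element. The 2 stretches printed, of 145 and 101 bases, are shorter than these windows, so the shares are not matched to them in length. Among windows of the other genes, that of Tlr9 holds the PU.1 letters and that of Tlr2 the NF-kappaB letters. The interferon response element occurs in the window of Myd88 and in the other window of Tlr6 (chr5:64959117-64959416). A match describes the letters and is no evidence of binding.

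**Figure D1:**
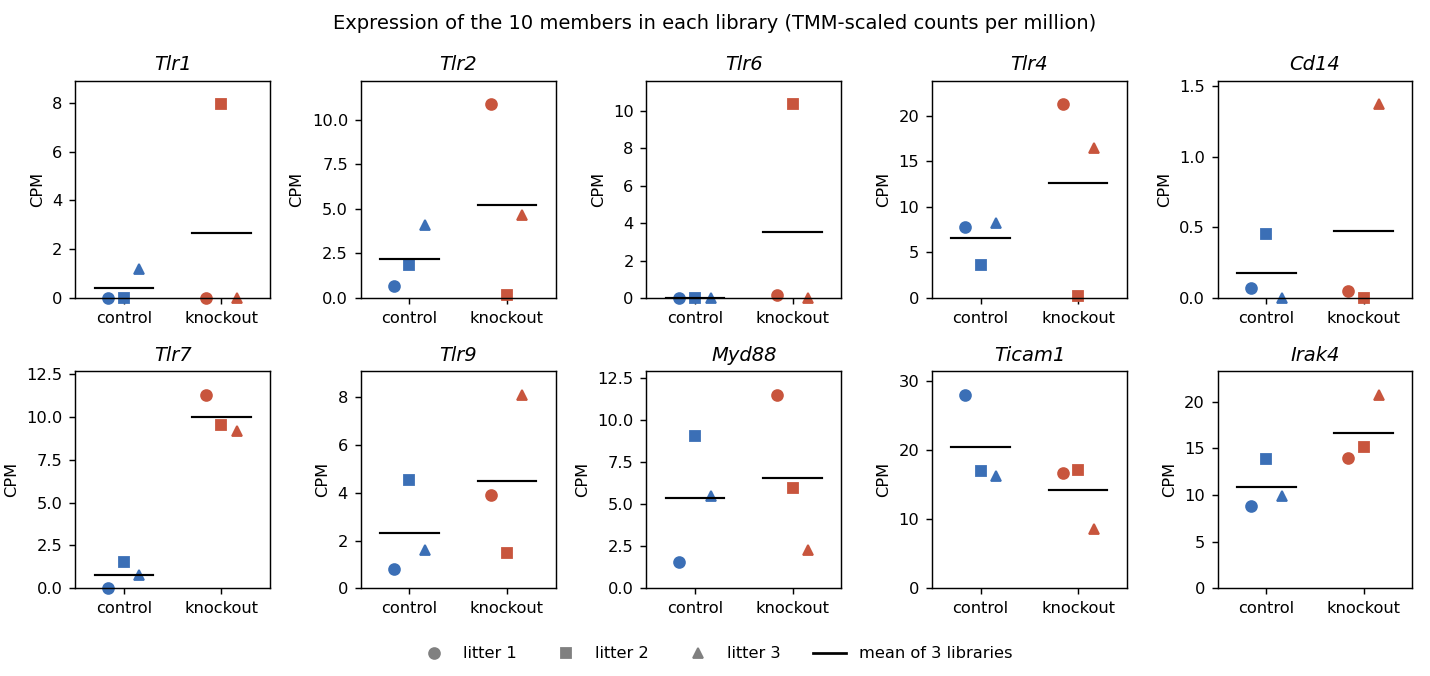
TMM-scaled CPM (vertical axes, 1 scale per gene, each from 0) of the 10 genes in 3 control and 3 knockout libraries, with a marker shape per litter and a line at the mean of each genotype. Tlr7 and Irak4 are the 2 genes in which every knockout lies above every control, and the knockout means of Tlr1 and Tlr6 come almost wholly from the library of litter 2.

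Tlr4, the lipopolysaccharide receptor (chromosome 4, 66827584 to 66930284), had a pattern like that of Tlr2. It was at 7.77, 3.66 and 8.21 CPM in controls 1 to 3 and at 21.3, 0.220 and 16.5 CPM in knockouts 1 to 3. Knockouts 1 and 3 were above every control, and knockout 2 held 1.92% of the mean of the other libraries. The fitted knockout-over-control value was 0.95 on the log2 scale (SE 1.201; edgeR adjusted p = 0.932) and became -0.10 with litter as a replicate block (adjusted p = 0.998) and -0.46 with limma-voom (adjusted p = 0.953). Tlr3, the endosomal receptor of double-stranded RNA, was also low in knockout 2, with 10 counts against 288 to 534 in the other 5 libraries. The mannose receptor gene Mrc1 (26.4 CPM against 180 to 366), the adhesion gene Vcam1 (2.31 CPM against 22.4 to 50.9) and the interleukin-1 receptor gene Il1r1 (0 counts against 264 to 869) were low there as well. The low levels of Tlr2, Tlr4 and Tlr3 in knockout 2 thus stood beside the low endothelial sum of that library, and the part of endothelial RNA in their levels was not tested. With knockout 2 left out, Tlr2 and Tlr4 joined Tlr7 and Irak4 as genes with every knockout above every control. The share of all tested genes that do so with 2 knockouts against 3 controls was not computed. For Tlr2 the gap was narrow, as knockout 3 had 162 counts and control 3 had 180 (4.63 and 4.08 CPM after scaling).

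The 2 proteins that help Tlr4 bind its ligand differed from it. Cd14 (chromosome 18, 36725067 to 36726798) was barely counted, with 2, 17 and 0 counts in the controls of litters 1 to 3 and 2, 0 and 48 in their knockout litter mates. It did not pass the filter on low counts, and the edgeR estimate without that filter was 1.41 on the log2 scale (SE 2.49, adjusted p = 0.882). Ly96 was at 7.25, 7.22 and 2.52 CPM in controls 1 to 3 and at 5.64, 2.43 and 24.2 CPM in knockouts 1 to 3 (log2 fold change 0.92, SE 0.94, edgeR adjusted p = 0.907). Knockout 1, with the most Tlr4, had neither a high Ly96 nor more than 2 counts of Cd14, while knockout 3 held the most of both helpers.

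Tlr7, the receptor of single-stranded RNA, separated the genotypes most among the 10 genes. It lies on the X chromosome (167304929 to 167330558, minus strand). The controls of litters 1 to 3 gave 0, 57 and 35 counts of it and the knockouts gave 449, 345 and 321, which is 0, 1.52 and 0.794 CPM against 11.3, 9.51 and 9.17 CPM. The control mean was 0.773 ± 0.762 CPM and the knockout mean 9.99 ± 1.14 CPM (SD, n = 3 each; two-sided exact permutation p = 0.1, the smallest that 3 against 3 can give). The 3 knockouts were close to each other, with a coefficient of variation of 11.4% where the median tested gene had 58.4%. In the controls it was 98.7%, where the median tested gene had 33.7%. The log2 fold change of 3.68 (SE 1.41) had an unadjusted p of 0.0310 and did not pass after adjustment (edgeR adjusted p = 0.736). The difference was positive in all 3 litters, at 7.71, 2.60 and 3.44 on the log2 CPM scale in litters 1 to 3, the first of these set by the 0 of control 1. DESeq2 gave an adjusted p of 0.112. With litter as a replicate block DESeq2 called Tlr7 (log2 fold change 4.53, adjusted p = 0.0186) among 154 genes higher in the knockout, 1.2% of those given an adjusted p, and edgeR did not (4.46, adjusted p = 0.953). Among all tested genes, 6.39% had every knockout above every control and 7.74% every knockout below, while 4.26% were higher and 2.24% lower at an unadjusted p under 0.05.

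As Tlr7 is X-linked, genes that tell the sexes apart were read beside it. Xist, expressed from the inactive X chromosome, was at 497, 488 and 182 CPM in controls 1 to 3 and at 64.6, 126 and 163 CPM in knockouts 1 to 3. The 4 Y-linked genes Ddx3y, Uty, Eif2s3y and Kdm5d were counted in every library as well, and each overlapped between the genotypes. All 4 were higher in the knockout in litters 1 and 2. In litter 3 Uty was higher (14.1 CPM in the control and 30.7 in the knockout), while Ddx3y (25.0 and 6.85 CPM), Eif2s3y (13.3 and 2.80 CPM) and Kdm5d (19.7 and 3.51 CPM) were lower. Xist was lower in every knockout (log2 fold change -1.72, SE 0.46, edgeR adjusted p = 0.629, DESeq2 adjusted p = 0.0253), opposite in direction to Tlr7, and the part of sex composition in the level of Tlr7 was not tested.

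Of the genes that work with Tlr7, some had every knockout above every control and others did not, and none passed in edgeR. Unc93b1, the chaperone that brings Tlr7 and Tlr9 to endosomes, was at 1.11, 4.41 and 7.39 CPM in controls 1 to 3 and at 16.3, 21.8 and 49.8 CPM in knockouts 1 to 3 (log2 fold change 2.76, SE 0.78, edgeR adjusted p = 0.663, DESeq2 adjusted p = 0.0244). Tlr8, the neighbour and relative of Tlr7 on the X chromosome, was counted 0, 20 and 0 times in the controls and 105, 42 and 108 times in the knockouts (log2 fold change 3.66, SE 1.98, edgeR adjusted p = 0.797). The chaperones Hsp90b1 (log2 fold change -0.23, lower in all 3 litters) and Cnpy3 (-0.29) overlapped between the genotypes. Tlr9, the receptor of unmethylated DNA (chromosome 9, 106222598 to 106226883), did not separate the genotypes. It was at 0.794, 4.55 and 1.59 CPM in controls 1 to 3 and at 3.90, 1.49 and 8.11 CPM in knockouts 1 to 3 (log2 fold change 0.96, SE 1.08, edgeR adjusted p = 0.918). Within litters it was higher in the knockout in litters 1 and 3 and lower in litter 2. Its log2 fold change was 0.23 without knockout 3, 0.55 without control 1 and 1.91 without control 2.

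Several macrophage markers were also higher in every knockout. Csf1r, the receptor of the macrophage growth factor, was at 8.91, 39.1 and 22.4 CPM in controls 1 to 3 and at 75.7, 92.4 and 141 CPM in knockouts 1 to 3. Cd68 was at 7.25, 7.03 and 4.88 CPM in controls and at 14.8, 23.7 and 22.1 CPM in knockouts. Of the 15 macrophage genes listed, 14 were tested. Of those, 5 (Csf1r, C1qb, Cd68, Timd4 and Lyz2) had every knockout above every control, where 6.39% of all tested genes did. None passed after adjustment in edgeR. DESeq2 called Csf1r, C1qb and Lyz2 (adjusted p = 0.00759, 0.00214 and 0.00772), and higher calls were 0.777% of all genes given an adjusted p. It did not call Cd68 (adjusted p = 0.0655) or Timd4 (0.195). The lists of cell type markers were chosen with earlier results of these data known. The sum over all 15 was 378 to 616 CPM in controls and 380 to 1822 CPM in knockouts, with knockout 2 near the controls. Without Mrc1 and Vcam1, which liver endothelium also expresses, the sum was 176 to 207 CPM in controls and 351 to 1419 CPM in knockouts, with knockout 2 lowest of these. Cd163 was at 0 counts in controls 1 and 2 and in knockout 3, and no other gene of the list was at 0 in any library. Monocyte and granulocyte genes summed to 96.8 to 143 CPM in controls and to 163 to 440 CPM in knockouts. Of the 9 tested, 4 (Ccr2, Itgam, Fcgr3 and S100a8) had every knockout above every control. Others did not, as Csf3r had 1 count in knockout 3 against 273 to 980 elsewhere. S100a9 was at 3.55 and 3.47 CPM in knockouts 1 and 2, below every control (7.41 to 12.1 CPM), and at 45.9 CPM in knockout 3. Of the 9 tested, DESeq2 called Fcgr3 alone (adjusted p = 0.0477) and edgeR called none. Of 4 mast cell genes, Cpa3 was at 0.0691, 3.72 and 0.249 CPM in controls 1 to 3 and at 11.7, 4.08 and 17.9 CPM in knockouts 1 to 3, Fcer1a had 0 counts in every library, Ms4a2 was counted in control 2 alone and Mcpt8 in controls 2 and 3 and knockout 2. Sums of B cell genes (1.69 to 5.43 CPM) and dendritic cell genes (0.794 to 13.0 CPM) were low in all libraries. The list was not uniform in knockout 2, where the 5 genes above were higher than in every control, as Tlr7 was, while Mertk (6.39 CPM), Mrc1 and Vcam1 were lowest of all libraries and C1qc (16.04 CPM) lay within the controls. The part of macrophage RNA in the levels of Tlr7, Tlr8 and Unc93b1 was not tested.

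**Figure D2:**
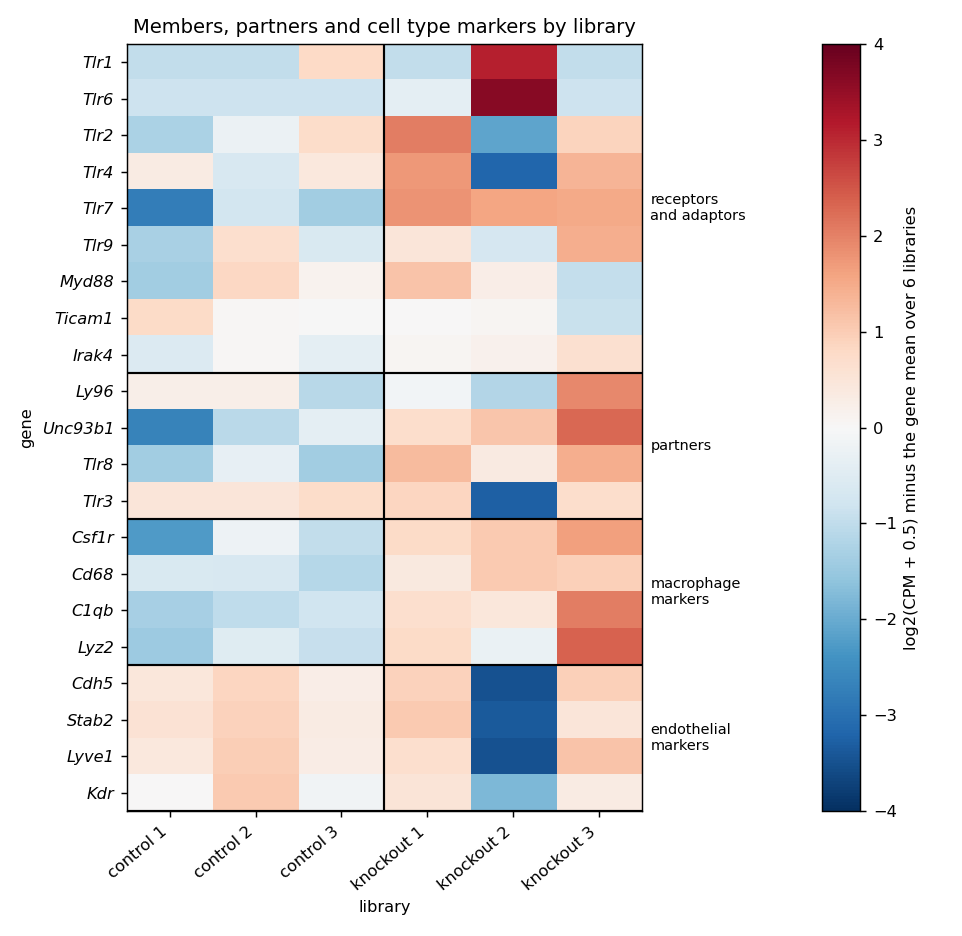
Colour gives log2(CPM + 0.5) minus the mean of that gene over the 6 libraries (columns), for 9 of the 10 genes (Cd14, with few counts, is left out), 4 partner genes, 4 macrophage markers and 4 endothelial markers. Tlr2, Tlr4 and Tlr3 share the deep low of knockout 2 with the 4 endothelial markers drawn. Tlr7, Tlr8 and Unc93b1 are high in all 3 knockouts with Csf1r and Cd68. The 4 macrophage markers are among the 5 genes of their list with every knockout above every control. Tie1 of the endothelial list, highest in knockout 2, is not drawn.

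The shared signalling components Irak4, Ticam1 and Myd88 were counted in every library. Irak4, the kinase that Myd88 recruits (chromosome 15, 94543643 to 94581815), was at 8.87, 13.8 and 9.87 CPM in controls 1 to 3 and at 14.0, 15.1 and 20.8 CPM in knockouts 1 to 3. Every knockout was above every control, though knockout 1 and control 2 nearly met. The means were 10.9 ± 2.62 and 16.6 ± 3.62 CPM (SD, n = 3 each; two-sided exact permutation p = 0.1), and the log2 fold change of 0.62 (SE 0.46) did not pass (edgeR adjusted p = 0.868). Under upper-quartile scaling the genotypes overlapped in this gene. The exons of Irak4 share 395 bases with Twf1 on the opposite strand, and the strand setting of the counting is not given in the sources used here. Twf1 was at 19.4, 32.3 and 24.5 CPM in controls 1 to 3 and at 33.5, 28.4 and 34.1 CPM in knockouts 1 to 3.

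Ticam1, the adaptor of the interferon branch (chromosome 17, 56269319 to 56276786), was the only member with a lower mean in the knockout. It was at 28.0, 17.0 and 16.3 CPM in controls 1 to 3 and at 16.7, 17.2 and 8.65 CPM in knockouts 1 to 3, and the genotypes overlapped (log2 fold change -0.53, SE 0.47, edgeR adjusted p = 0.894). Control 1 was the highest library and knockout 3 the lowest, with the other 4 close together. The coefficient of variation of Ticam1 was 32.2% in controls and 33.8% in knockouts, and that of Irak4 was 24.1% and 21.7%, where the median tested gene had 33.7% and 58.4%. Myd88, the adaptor shared by nearly all Toll-like receptors (chromosome 9, 119335934 to 119341411), had a coefficient of variation of 70.0% in controls and 70.5% in knockouts. It was at 1.55, 9.07 and 5.49 CPM in controls 1 to 3 and at 11.5, 5.95 and 2.28 CPM in knockouts 1 to 3 (log2 fold change 0.29, SE 0.93, edgeR adjusted p = 0.977). Its direction rested on single libraries, since the log2 fold change was -0.14 without control 1 and -0.38 without knockout 1. The exons of Myd88 share 290 bases with Acaa1a on the opposite strand, which was at 6.07 to 11.5 CPM in controls and at 9.37 to 26.0 CPM in knockouts.

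The stretches before the starts of Ticam1 and Irak4 are shown for comparison with those of Tlr1 and Tlr6, as these 2 genes had at least 257 counts in every library. They lie at chr17:56276787-56276917 (minus strand) and chr15:94543548-94543642 (plus strand), from RefSeq (GRCm38.p6), with the motif matches in capitals.
Ticam1: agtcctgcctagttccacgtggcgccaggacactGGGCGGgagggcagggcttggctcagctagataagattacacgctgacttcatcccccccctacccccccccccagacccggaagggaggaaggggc
Irak4: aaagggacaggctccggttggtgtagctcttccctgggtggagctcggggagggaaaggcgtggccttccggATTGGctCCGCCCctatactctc
Each holds the GC box GGGCGG, on the plus strand in Ticam1 and in reverse in Irak4, and Irak4 also holds CCAAT in reverse. Over all windows of 300 bases, which are longer than the stretches printed, 35.7% hold GGGCGG. Of the 10 genes, 7 matched a RefSeq promoter window (all but Tlr4, Tlr7 and Cd14), and the median window held 7 CpG dinucleotides. The windows of Irak4, Myd88 and Ticam1 held 16, 13 and 10, that of Tlr2 held 11, that of Tlr9 held 0, and those at the outermost starts of Tlr1 and Tlr6 held 3 and 7.

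**Figure D3:**
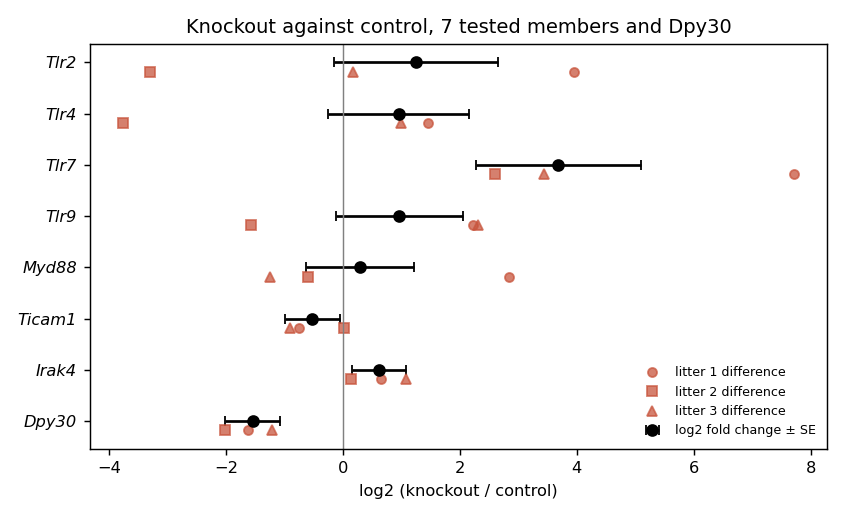
Log2 fold change of knockout over control from edgeR (black points, bars of 1 SE) for the 7 tested genes and Dpy30, with the difference in log2 CPM within each litter (red, a shape per litter). Of the 7 genes, Tlr7 and Irak4 are positive in all 3 litters, and Tlr2, Tlr4, Tlr9 and Myd88 are negative in litter 2.

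Read as a group, 9 of the 10 genes had a higher mean CPM in the knockout, and the share of all genes that did was not computed. The difference in means turned negative for Tlr1 without knockout 2 (-0.40 CPM), Cd14 without knockout 3 (-0.15 CPM) and Myd88 without knockout 1 (-1.17 CPM). In 2 of the 10 (Tlr7 and Irak4) every knockout was above every control, where 6.39% of all tested genes did so. Among the 7 tested genes 6 had a positive log2 fold change, where 50.8% of all tested genes did, and 2 were at least 2-fold higher, where 13.5% of all were. The median log2 fold change of the 7 was 0.95, against 0.01 over all tested genes. That median was 0.20 with litter as a replicate block, 0.26 with limma-voom, 0.34 without knockout 1 and 0.55 without control 1, each with 5 of the 7 positive. The 3 genes left out by the filter were those with fewest counts, so these figures do not describe all 10. The members were chosen with earlier results of these data known, so the figures are no test of the group. Within litters, 7 members were higher and 2 lower in litter 1, 5 were higher and 5 lower in litter 2, and 6 were higher and 3 lower in litter 3, with 1 at 0 in both libraries of litter 1 and 1 in those of litter 3. The summed level of the 10 genes was 47.8, 51.9 and 47.6 CPM in controls 1 to 3 and 89.7, 67.9 and 71.4 CPM in knockouts 1 to 3. The sums did not overlap, but different genes made up the excess. In knockout 1 Tlr2, Tlr4, Tlr7 and Myd88 were highest of all libraries, in knockout 2 Tlr1 and Tlr6 were, and in knockout 3 Tlr9, Irak4 and Cd14 were.

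Levels were compared between genes per kilobase of annotated exon. In controls the order was Ticam1 (6.83 ± 2.20 CPM per kilobase; SD, n = 3, here and for the values that follow), Irak4 (2.16 ± 0.522), Myd88 (2.08 ± 1.46), Tlr4 (1.18 ± 0.451), Tlr2 (0.728 ± 0.577), Tlr9 (0.664 ± 0.569), Tlr7 (0.189 ± 0.187), Tlr1 (0.120 ± 0.207) and Cd14 (0.101 ± 0.141), with Tlr6 at 0 counts. Ticam1 stood above Irak4 by more than either SD, and every other neighbouring pair in this order lay within the larger of its 2 SDs. In knockouts Ticam1 (4.74 ± 1.60) and Irak4 (3.31 ± 0.721) were again the highest, and Tlr7 (2.45 ± 0.280) reached the level of Myd88 (2.55 ± 1.801) and Tlr4 (2.28 ± 1.98). Below them came Tlr2 (1.73 ± 1.79), Tlr9 (1.29 ± 0.964), Tlr6 (0.943 ± 1.59), Tlr1 (0.791 ± 1.37) and Cd14 (0.274 ± 0.449), and every neighbouring pair lay within the larger of its 2 SDs. Tlr7 moved furthest up the order, from the seventh place to the fourth.

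The wider pathway was read from 100 other genes in 9 lists, of which 81 were tested. In edgeR none passed after adjustment, while 12 were higher at an unadjusted p under 0.05 and none lower. Every knockout was above every control in 14 (17.3% of those tested, where 6.39% of all tested genes did) and below in none. The median log2 fold change was 0.56. DESeq2 called 4 of them, all higher: Cd80, Cd86, Rsad2 and Unc93b1 (higher calls were 0.777% of all genes given an adjusted p). With litter as a replicate block DESeq2 called 6, all higher, the same genes with Nfkb1 and Oasl2 (higher calls were then 1.2% of all genes given an adjusted p). The lists were chosen with earlier results of these data known, so these counts and shares describe the lists and test nothing. Among other receptors, Tlr8 separated the genotypes, while Tlr5, Tlr12 and Tlr13 had log2 fold changes of 1.54, 0.35 and 2.47 with overlapping groups, and Tlr11 had 0 counts in every library. Among the co-receptors, Cd180, a relative of Tlr4 on B cells and macrophages, was at 7.15, 17.1 and 7.98 CPM in controls 1 to 3 and at 50.3, 14.8 and 71.9 CPM in knockouts 1 to 3 (log2 fold change 2.09, SE 0.63, edgeR adjusted p = 0.672), so that knockout 2 again lay with the controls.

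Of the other adaptors, Tirap, which links Tlr2 and Tlr4 to Myd88, was higher in every knockout (8.18, 8.13 and 17.6 CPM against 5.25, 7.54 and 3.97 CPM in controls 1 to 3; log2 fold change 1.01, edgeR adjusted p = 0.844), while Ticam2, which links Tlr4 to Ticam1, was at 4.68, 0.303 and 0.114 CPM in knockouts 1 to 3 and at 0.794 to 2.78 CPM in controls. The 19 kinases and ubiquitin enzymes had a median log2 fold change of 0.33. Tab2, a partner of the kinase Tak1, was at 248, 200 and 197 CPM in controls 1 to 3 and at 277, 316 and 308 CPM in knockouts 1 to 3 (log2 fold change 0.48, SE 0.19, edgeR adjusted p = 0.753). Of the 11 transcription factors, Nfkb1, the p50 subunit of NF-kappaB, was at 19.4, 28.8 and 41.9 CPM in controls 1 to 3 and at 53.4, 63.6 and 98.6 CPM in knockouts 1 to 3 (log2 fold change 1.26, SE 0.38, edgeR adjusted p = 0.672). Rela, which encodes the p65 subunit, had a log2 fold change of 0.04. Among negative regulators, Tnip1, a partner of A20, had a control mean of 6.25 ± 2.94 and a knockout mean of 19.0 ± 7.22 CPM, and Il1rl1 6.43 ± 1.96 and 24.1 ± 11.4 CPM (SD, n = 3 each; edgeR adjusted p = 0.729 and 0.663).

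Genes that the pathway is known to induce differed in whether they were counted at all. Of 20 NF-kappaB targets, 12 did not have enough counts to be tested. Il6, Il10, Il12b, Cxcl2 and Nos2 had 5 counts or fewer in every library, and Il1b and Cxcl1 had 23 and 63 counts in knockout 1 and none elsewhere. The co-stimulatory ligands Cd80 and Cd86 were called by DESeq2 and not by edgeR, with Cd80 at 0 counts in each control and 132, 398 and 485 in knockouts 1 to 3, and Cd86 at a control mean of 2.91 ± 0.998 CPM and a knockout mean of 21.6 ± 5.53 CPM (SD, n = 3 each; edgeR adjusted p = 0.571, DESeq2 adjusted p = 0.000111). Ccl2 had 0 counts in each control and 110, 0 and 3140 in knockouts 1 to 3. Of 13 interferon targets, 10 were tested and all 10 had a positive log2 fold change, where 50.8% of all tested genes did. The values ran from 0.03 (Ifit1) to 2.61 (Rsad2). Of the 10, 3 had every knockout above every control, where 6.39% of all tested genes did. Rsad2 was at 2.59, 5.99 and 1.77 CPM in controls 1 to 3 and at 23.0, 7.44 and 32.9 CPM in knockouts 1 to 3 (log2 fold change 2.61, SE 0.76, edgeR adjusted p = 0.672, DESeq2 adjusted p = 0.0395), and Ifnb1 itself had 0 counts in every library.

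**Figure D4:**
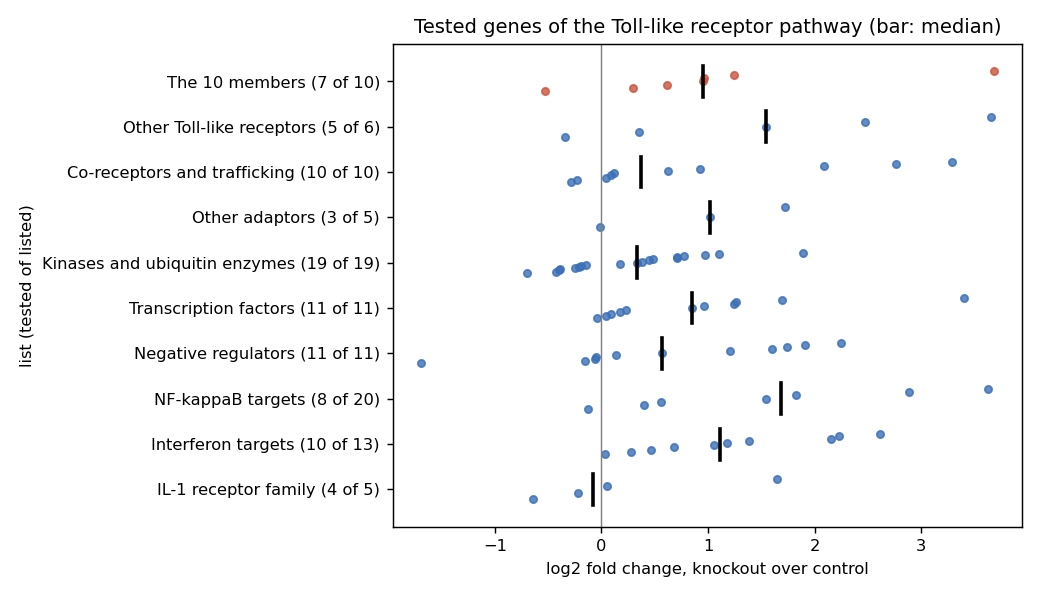
Log2 fold changes, knockout over control, of the tested genes in the group of 10 (red) and in 9 lists of other pathway genes (blue), with the median of each list as a bar and the number tested of those listed in brackets. Points right of 0 are higher in the knockout, most lists lie to that side with medians up to 1.68, and Cd80, at 0 counts in all controls, is not drawn but is counted in its list's median.

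The genes whose pattern over the 6 libraries was most like the mean of the 7 tested members were Pea15a, D3Ertd751e, Atg2a, St3gal4 and Apbb2. Likeness was measured as the root mean square difference between centred log2 CPM values, which was 0.203 to 0.275 for these 5 and 1.132 for the median gene. Pea15a was at 13.3, 29.3 and 24.0 CPM in controls 1 to 3 and at 60.0, 15.4 and 61.5 CPM in knockouts 1 to 3. Each of the 5 shared the low of control 1 and of knockout 2 and the high of knockouts 1 and 3, which follows from how they were picked. The mean is not the pattern of every member, as Tlr7 was high in knockout 2 (9.51 CPM) and Ticam1 was highest in control 1 (28.0 CPM).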

How the data were processed

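RNA of sorted HSCs, 3 samples of each genotype, was sequenced after 2 rounds of poly(A) selection, per the labels' protocols. The authors deposited whole-number read counts per gene symbol, not normalized, 1 list per sample. The submitters' processing notes name TopHat2, HTSeq 0.6.0, DESeq, Picard 1.126, CASAVA 1.8.4, bedtools 2.17.0 and the build mm10, with no order. The closing tallies of reads given to no gene (41.0% to 51.0% of reads) were left out.

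Genes were filtered with edgeR's filterByExpr by group (13646 kept), scaled by TMM and tested with edgeR's quasi-likelihood F test (edgeR 4.0.16, R 4.3.3) with no term for litter; p-values were adjusted by Benjamini-Hochberg over all tested genes, with a threshold of 0.05. The SE was obtained by dividing the absolute log2 fold change by the root of F. Log2 CPM uses a prior count of 2. Procedures were tested on simulated data. DESeq2 1.42.0, limma-voom (limma 3.58.1), a litter block, other scalings and filters, and leaving out each sample were tried.

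Litters pair the samples per the labels. The deviations of litter mates from their genotype means correlated at -0.02, -0.08 and 0.003 across genes. Replicates correlated at 0.856 to 0.880 among controls and 0.720 to 0.773 among knockouts. P-values measure the spread between these samples, which may be technical in part.

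Exon lengths and positions are from GENCODE M21 (GRCm38, the same assembly as mm10). Adgre1 was read under its older symbol Emr1. Bases annotated as exon were trimmed from the promoter stretches. Members and lists were chosen with earlier results of these data known; the named genes were all 10 members, up to 4 of each list in order of p, and the 5 genes most like the members. Other pathway and marker genes given with values, and the endothelial and sex-linked genes, were chosen after values were seen.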

Additional observations from a re-analysis of the deposited data

How the results depend on the processing

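The count of genes past the threshold was 0 with edgeR under the litter as replicate block, limma-voom and the 3 other scalings, and 0 to 0 when each sample was left out in turn. It was 138 with DESeq2, 277 with DESeq2 and the block, and 1 without a filter on low counts or with at least 10 counts in every sample. The members with every knockout above every control numbered 1 under upper-quartile scaling, and 2 to 4 when 1 sample was left out, with 4 without knockout 2 and 3 without knockout 3. The 6.39% given for all tested genes holds for the main setting, and that share was not computed for these alternatives. The members with a higher mean in the knockout numbered 8 to 9, and the summed difference was 19.7 to 31.6 CPM, when 1 sample was left out. Tlr4 turned to -0.10 with the block in edgeR, -0.092 with the block in DESeq2 and -0.46 with limma-voom. Myd88 ranged from -0.38 (without knockout 1) to 0.91 when 1 sample was left out, at -0.14 without control 1. Tlr7 passed with DESeq2 and the block (4.53, adjusted p = 0.0186), and the block changed no other member's call. Pathway genes higher at an unadjusted p under 0.05 numbered 8 to 15 over all alternatives. The median log2 fold change of all tested genes was 0.23 with library size only and -0.10 under upper-quartile scaling, against 0.01 with TMM. Tlr2, Tlr4 and Tlr7 have no value with at least 10 counts in every sample.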
